A study of Bos taurus with 22 samples.

Results

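The genes described here were 8 gut hormone genes (GCG, CCK, GIP, SST, NTS, PYY, MLN and GHRL) and 2 granin genes (CHGA and CHGB), chosen by symbol from a list of enteroendocrine products. All 10 were present among the 27570 genes of the count table. The mRNA was sequenced from jejunal mucosa of Holstein steers that were 10 to 12 months old, with 1 library per steer and 22 steers analysed. Every steer had an abomasal catheter and received raw corn starch through it (3.94 g per kg body weight per day) for 7 days. Control steers (n = 5) received water with the starch and injections of vehicle, which was bovine serum albumin (BSA) in saline. GLP-2 steers (n = 5) received water and 100 µg of glucagon-like peptide 2 (GLP-2) per kg body weight per day under the skin, in 2 daily portions. Casein steers (n = 6) received 1.30 g of sodium caseinate per kg body weight per day with the starch, and vehicle injections. Casein + GLP-2 steers (n = 6) received both. The GLP-2 was synthesized from the bovine sequence. Of the 24 steers of the study, 1 further GLP-2 steer was not analysed here, and the paper left 1 control steer unsequenced for low RNA integrity. The paper also reports that RNA integrity varied among the sequenced samples. All groups were infused with starch, so none describes a steer without it. The paper states that mucosa was collected hours after the last injection and after the infusion had ended.

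Enteroendocrine cells are scattered single cells of the intestinal epithelium that sense the luminal contents and release peptide hormones on their basal side. Each hormone is made as a prohormone, cleaved by convertases and stored in dense granules together with granins, so that CHGA is commonly used as a marker of the whole lineage. GCG encodes proglucagon, from which the L cell releases GLP-1 and GLP-2, so the injected peptide is a product of one of the genes measured here.

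Libraries held 8809666 to 28447810 counts (median 12028560.5), and the 10 genes together took 852 to 5068 of them (median 1828). In whole mucosa, fewer enteroendocrine cells and less hormone mRNA per cell cannot be told apart. The mucosal samples also differed in their content of other cells. All 9 tested B cell follicle markers were on the lower side with GLP-2 against BSA. Of these, 8 passed the threshold (adjusted p of at most 0.05 in edgeR), against 8.37% of all genes on the lower side. The summed level of the follicle markers ranged from 31.7 to 84.3 CPM (counts scaled to library size) in GLP-2 injected steers and from 48.6 to 2121 CPM in BSA injected steers. Of 7 villus enterocyte markers, 0 passed the threshold and 7 were on the higher side with GLP-2, with summed levels of 16129 to 90225 CPM with GLP-2 and 1804 to 59228 CPM with BSA.

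GIP, which encodes glucose-dependent insulinotropic polypeptide, the incretin of the K cell, had the highest level per gene length, 25.8 ± 12.1 FPKM (fragments per kilobase of gene, scaled to library size, SD, n = 22). SST, the somatostatin of D cells, followed at 19.9 ± 7.36 FPKM, GCG at 17.2 ± 8.74 FPKM and CHGA at 14.5 ± 6.07 FPKM. Neighbours in this order were not separated, since GIP exceeded SST in 14 of the 22 steers, SST exceeded GCG in 15, and GCG exceeded CHGA in 15. The ends were further apart, with GIP above CHGA in 20 steers and SST above CHGA in 18. NTS, the neurotensin of N cells, was at 10.3 ± 8.76 FPKM and had the widest spread of the genes detected in every steer, 29.3-fold from the lowest to the highest steer. CCK, the cholecystokinin of I cells, was at 6.90 ± 2.81 FPKM and exceeded MLN, which encodes motilin, in 19 steers. MLN was at 3.51 ± 2.64 FPKM and exceeded the next gene in 20 steers.

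The lowest levels were those of GHRL, which encodes ghrelin (0.654 ± 0.883 FPKM), PYY, which encodes peptide YY (0.459 ± 0.482 FPKM), and CHGB (0.0427 ± 0.0733 FPKM). GHRL exceeded PYY in 9 of 22 steers, so the order of those genes was not separated. PYY had 0 counts in 3 steers, GHRL in 8 and CHGB in 9, and a count of 0 allowed a level of up to 0.123 to 0.344 CPM depending on the depth of the library.

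**Figure D1:**
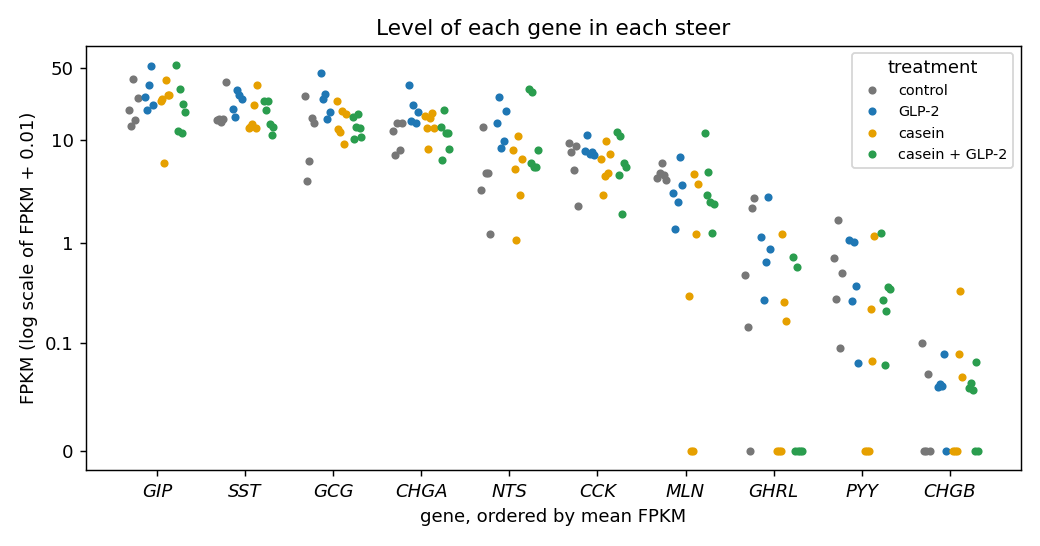
Level of each of the 10 genes in each steer, as deposited FPKM on a log axis (FPKM + 0.01), with 1 point per steer coloured by treatment and genes ordered by their mean. The ranges of GIP, SST, GCG and CHGA overlapped, NTS spread most among the genes detected in every steer, and GHRL, PYY and CHGB included steers at 0.

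With exogenous GLP-2, no change in mRNA of GCG, CCK or GIP, hormone genes of L, I and K cells, passed the threshold. A gene was called where its adjusted p (Benjamini-Hochberg, edgeR's quasi-likelihood test) did not exceed 0.05, and of 13928 tested genes 13.5% were called between GLP-2 and BSA injected steers, 5.13% higher and 8.37% lower. The number called over all genes was 1881 and moved with the model, to 689 with the replicate block as a term and 2999 with DESeq2. The filter on low counts left 7 of the 10 genes, of which NTS alone was called, and it was higher with GLP-2. The other 6 had log2 fold changes of 0.12 to 0.40, and the median of the 7 was 0.30 against 0.01 over all tested genes, 50.7% of which were on the higher side. The signs were not alike in both infusion groups. In the model of the 4 treatments given below, GLP-2 against control had 6 of 8 members on the higher side (median 0.41). Casein + GLP-2 against casein had 4 of 8 on the higher side (median 0.07).

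GCG (ENSBTAG00000000730, chromosome 2, 34292569 to 34302949, plus strand, ARS-UCD1.2 throughout) was measured in CPM, normalized by trimmed mean of M values, and at 30.0, 4.41, 6.83, 18.2 and 15.8 CPM in the control steers of blocks 1 to 5. In the GLP-2 steers of blocks 1, 3, 4, 5 and 6 it was at 50.4, 27.4, 31.5, 18.2 and 20.7 CPM. Casein steers ranged from 10.6 to 26.3 CPM with a median of 17.1, and casein + GLP-2 steers from 11.5 to 20.2 CPM with a median of 14.8. The steers given GLP-2 alone lay high, with all 5 above the control median and 2 above every control steer, while those given casein + GLP-2 lay within the range of the casein steers. Pooled over infusions, GCG averaged 21.8 ± 11.3 CPM in GLP-2 injected and 16.5 ± 7.80 CPM in BSA injected steers (SD, n = 11 per group). The log2 fold change was 0.40 (SE 0.285, 95% interval -0.19 to 0.99, adjusted p = 0.323 in edgeR), with 7 of 11 GLP-2 injected steers above the BSA median.

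CCK (ENSBTAG00000013027, chromosome 22, 14567356 to 14573955, minus strand) encodes the hormone that stimulates gallbladder contraction and pancreatic secretion. It was at 17.4, 13.9, 9.26, 16.2 and 4.11 CPM in control steers and at 14.7, 20.3, 13.8, 14.6 and 13 CPM in GLP-2 steers. Casein steers ranged from 5.41 to 18.2 CPM (median 10.6) and casein + GLP-2 steers from 3.54 to 20.7 CPM (median 10.8). All 4 treatments overlapped, and the lowest and the highest steer of the whole set were both casein + GLP-2 steers. The log2 fold change of GLP-2 against BSA was 0.25 (SE 0.273, 95% interval -0.31 to 0.82, adjusted p = 0.521 in edgeR).

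GIP (ENSBTAG00000005045, chromosome 19, 37567760 to 37573005, plus strand) was at 12.4, 8.56, 23.6, 9.91 and 15.5 CPM in control steers and at 16.8, 11.9, 22, 33.6 and 13.8 CPM in GLP-2 steers. Casein steers ranged from 3.73 to 24.1 CPM (median 16.4) and casein + GLP-2 steers from 7.44 to 31.4 CPM (median 13.2). The treatments overlapped, and 5 of 11 GLP-2 injected steers were above the BSA median. The log2 fold change of GLP-2 against BSA was 0.24 (SE 0.285, 95% interval -0.35 to 0.83, adjusted p = 0.563 in edgeR).

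**Figure D2:**
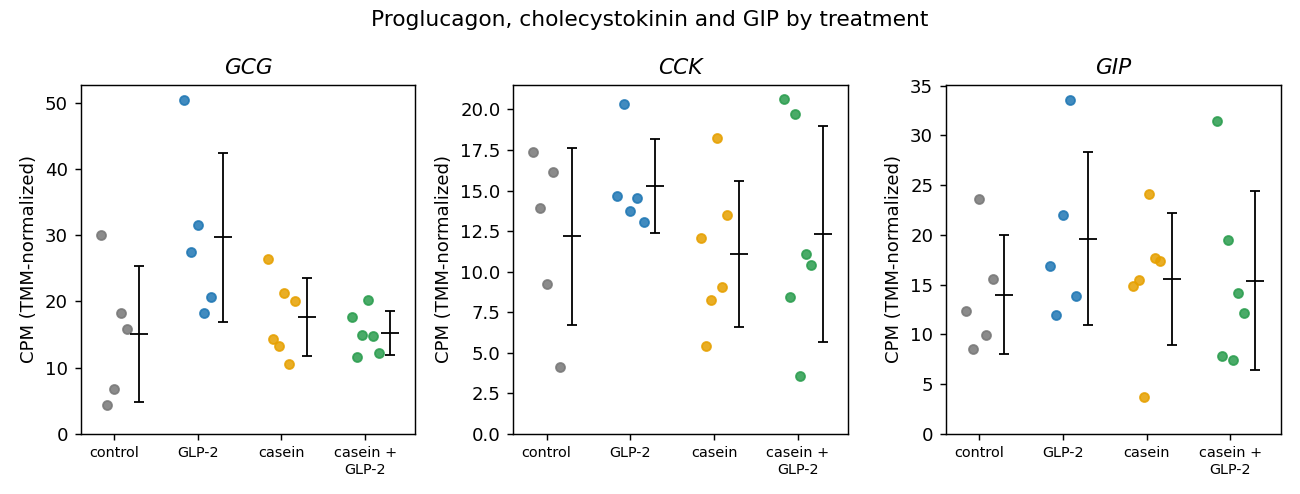
CPM of GCG, CCK and GIP in each steer by treatment, with 1 point per steer and bars for the mean and SD of each treatment (n = 5, 5, 6 and 6). GCG lay highest in steers given GLP-2 alone (29.6 ± 12.7 CPM against 15.1 ± 10.2 CPM in control steers), and CCK and GIP overlapped between all treatments.

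NTS (ENSBTAG00000005305, chromosome 5, 15532029 to 15543699, plus strand) encodes neurotensin, which is released after fat ingestion and slows gut motility. It was at 4.01, 16.4, 5.73, 5.91 and 1.47 CPM in control steers and at 18.2, 30.9, 10.5, 12.1 and 23.4 CPM in GLP-2 steers. Casein steers ranged from 1.30 to 13.3 CPM (median 7.26) and casein + GLP-2 steers from 6.74 to 36.3 CPM (median 8.62). All 11 GLP-2 injected steers were above the BSA median and 5 were above every BSA injected steer, but the groups overlapped, with 4 of 11 BSA injected steers above the lowest GLP-2 injected steer. Among casein + GLP-2 steers, blocks 1 and 3 (36.3 and 34.8 CPM) stood apart from the other 4, which lay between 6.74 and 9.97 CPM. NTS rose 2.66-fold with GLP-2 (log2 fold change 1.41, SE 0.413, 95% interval 0.56 to 2.26, adjusted p = 0.0318 in edgeR).

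The call for NTS was close to its threshold. With the replicate block as a term the log2 fold change was 1.42 and the adjusted p was 0.056 in edgeR. Leaving out 1 steer gave 1.22 to 1.63 with adjusted p from 0.0108 to 0.0657. The call was lost in 7 of those 22 fits, those without control blocks 1, 3 or 5, GLP-2 blocks 3 or 6, or casein + GLP-2 blocks 1 or 3.

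The level of NTS moved with that of other cell types. Over the 22 steers, which share a library between each pair of values, log2 CPM of NTS had r = -0.81 with the B cell follicle score (the mean log2 CPM of its markers), 0.70 with the villus enterocyte score and 0.66 with the pan-epithelial score. For GCG the same values were -0.13, -0.04 and 0.43, and its highest r with the score of another cell type was 0.60, with goblet cells. Goblet markers summed to 498 to 2501 CPM in control and 1810 to 3097 CPM in GLP-2 steers. Pooled over infusions, the goblet markers summed to 607 to 3097 CPM with GLP-2 and 400 to 3094 CPM with BSA. The part of goblet cells in the values of GCG was not tested. Of 7 pan-epithelial markers, 3 were called higher with GLP-2 (CLDN7, CDH1 and EPCAM, the last not with the replicate block, adjusted p = 0.0637 in edgeR), against 5.13% of all genes. KRT19 (log2 fold change -0.48) and KRT18 (-0.16) of the same list were on the lower side and were not called. The list summed to 3673 to 7408 CPM with GLP-2 and 1865 to 5409 CPM with BSA. With the follicle score in the model the log2 fold change of NTS was 0.47 (adjusted p = 1 in edgeR), with the pan-epithelial score 0.83 (adjusted p = 0.337) and with the villus enterocyte score, added after the data were seen, 0.80 (adjusted p = 0.759). In each of these 3 fits 0 genes of all those tested were called, so the loss of the call was not particular to NTS. The follicle markers themselves differed between the injection groups, so the injection and the follicle content cannot be told apart in that fit. The part of epithelial content in the result was not tested further.

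Neurotensin is also made by nerves. Enteric neuron markers summed to 3.01 to 14.4 CPM with GLP-2 and 6.87 to 57.6 CPM with BSA, and of the 12 listed markers ELAVL3 was at 0 in every steer and NOS1 had counts in 1. Only 2 passed the filter, and STMN2 of those was called lower with GLP-2 (log2 fold change -1.95, adjusted p = 0.0197 in edgeR). The part of nerves in the level of NTS was not tested.

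**Figure D3:**
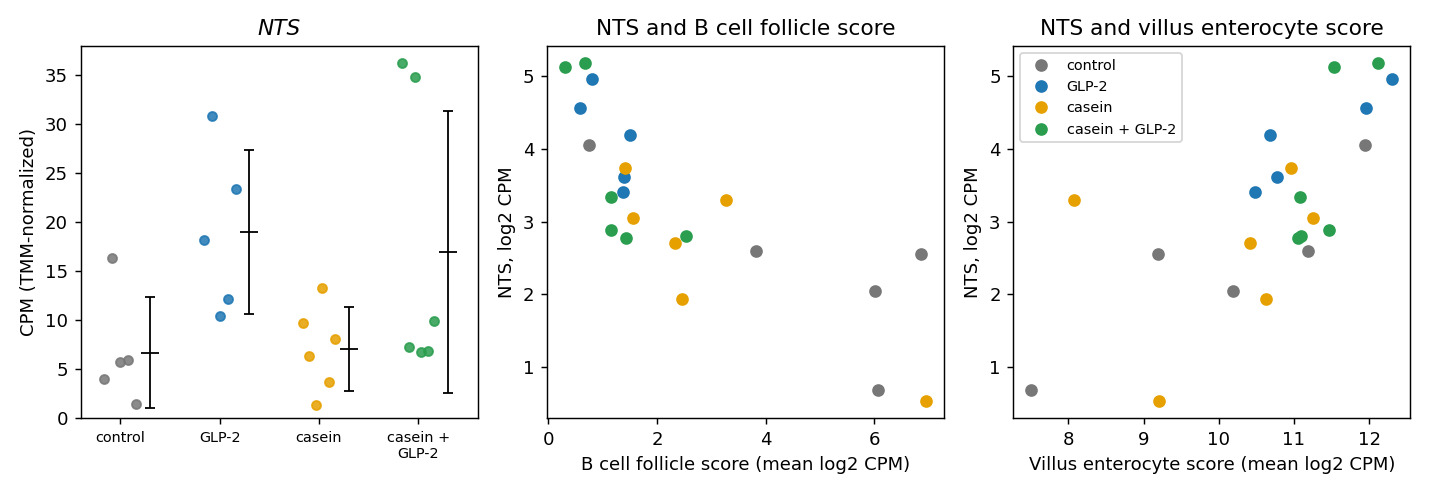
Left, CPM of NTS in each steer by treatment with the mean and SD; middle and right, log2 CPM of NTS against the B cell follicle score and the villus enterocyte score of the same steer, coloured by treatment. NTS was highest in steers with a low follicle score (r = -0.81) and a high villus enterocyte score (r = 0.70).

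SST (ENSBTAG00000017312, chromosome 1, 79657444 to 79659377, plus strand) encodes somatostatin, which inhibits the release of most other gut hormones. It was at 17.6, 17.6, 16.2, 17.8 and 39.8 CPM in control steers and at 22.5, 18.3, 34.6, 31.2 and 27.6 CPM in GLP-2 steers. Casein steers ranged from 14.2 to 38.6 CPM (median 15.4) and casein + GLP-2 steers from 12.4 to 26.5 CPM (median 18.9). All 5 GLP-2 steers exceeded 4 of the 5 control steers, and the remaining control steer (block 5) was above them all. Pooled, the log2 fold change of GLP-2 against BSA was 0.12 (SE 0.216, adjusted p = 0.723 in edgeR), and 0.04 to 0.24 when 1 steer was left out.

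MLN (ENSBTAG00000015550, chromosome 23, 7921502 to 7928988, minus strand) encodes motilin, the hormone of the interdigestive motor complex. Control libraries held 29 to 48 counts, GLP-2 libraries 18 to 40, casein libraries 0 to 28 and casein + GLP-2 libraries 9 to 88. Casein steers of blocks 1, 2 and 3 had 2, 0 and 0 counts, and all 5 control steers had at least 29. The log2 fold change of GLP-2 against BSA was 0.36 (SE 0.582, adjusted p = 0.68 in edgeR), or 0.01 without the casein + GLP-2 steer of block 1. That of casein against control was -1.51 (SE 0.827, 95% interval -3.22 to 0.21, adjusted p = 0.903 in edgeR).

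CHGA (ENSBTAG00000009836, chromosome 21, 57571704 to 57585058, plus strand) encodes chromogranin A, the granule protein common to enteroendocrine cells. It was at 51.8, 29.9, 59.5, 34.1 and 59.9 CPM in control steers and at 145, 62.6, 92.6, 62.3 and 78.1 CPM in GLP-2 steers. Casein steers ranged from 34.2 to 79.1 CPM (median 62.2) and casein + GLP-2 steers from 26.9 to 80.8 CPM (median 49.3). All 5 GLP-2 steers were above all 5 control steers and 5 of the 6 casein + GLP-2 steers were below every GLP-2 steer. The share of all genes that separated the treatments in this way was not counted. Between GLP-2 and control steers, 13.9% of all genes reached 0.05 before adjustment in edgeR, and 0% were called. Pooled over infusions, the log2 fold change of GLP-2 against BSA was 0.30 (SE 0.225, adjusted p = 0.348 in edgeR), and 0.09 without the GLP-2 steer of block 1.

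With casein infusion, no tested member passed the threshold. In the comparison with water, 0% of 14096 genes were called by edgeR's quasi-likelihood test, and 3.36% had an unadjusted p of at most 0.05. None of the 7 was called and none had an unadjusted p of at most 0.05, and DESeq2 called 5 genes in all and 0 of these. All 7 log2 fold changes were negative, with a median of -0.29 against 0.00 over all genes, 50.7% of which were on the higher side. The signs were not alike in both injection groups. In the model of the 4 treatments given below, casein against control had 4 of 8 members on the higher side (median -0.01). Casein + GLP-2 against GLP-2 had 1 of 8 on the higher side (median -0.40).

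GCG averaged 16.4 ± 4.73 CPM in casein infused (n = 12) and 22.4 ± 13.3 CPM in water infused steers (n = 10), a log2 fold change of -0.43 (95% interval -1.02 to 0.15, adjusted p = 0.994 in edgeR). CCK averaged 11.7 ± 5.47 and 13.7 ± 4.44 CPM, which gave a log2 fold change of -0.22 (95% interval -0.78 to 0.34, adjusted p = 0.994). GIP averaged 15.5 ± 7.55 and 16.8 ± 7.64 CPM, which gave a log2 fold change of -0.12 (95% interval -0.72 to 0.49, adjusted p = 0.994). The groups overlapped for each gene, and for GCG 4 of the 10 water infused steers were above every casein infused steer. Log2 fold changes of SST, NTS, CHGA and MLN were -0.29, -0.08, -0.30 and -0.48, and the intervals of all 7 genes included 0.

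**Figure D4:**
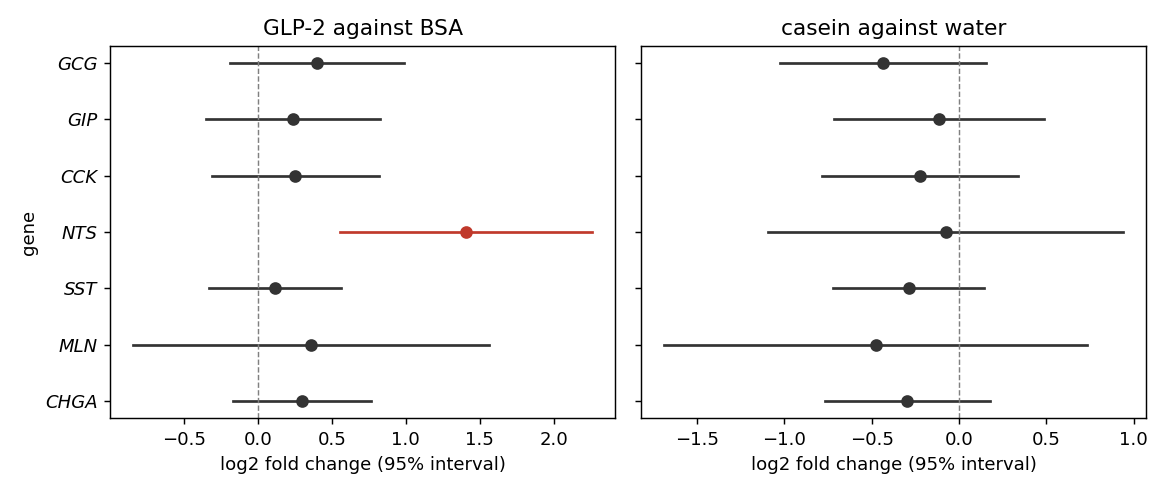
Log2 fold change with its 95% interval from edgeR for the 7 tested genes, GLP-2 against BSA on the left and casein against water on the right, with called genes in red. NTS with GLP-2 (1.41, 0.56 to 2.26) was called, and the interval of every other gene included 0 in both comparisons.

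The 4 treatments were then compared in 1 model of 15086 genes, in which PYY also passed the filter, so that 8 of the 10 genes were tested. Of all genes, 0% were called in GLP-2 against control, casein + GLP-2 against casein, casein against control, casein + GLP-2 against GLP-2 or the interaction of casein with GLP-2, and none of the 8 was called. DESeq2 called 0 of the 8 in each as well, although it called 289 genes in GLP-2 against control and 891 in casein + GLP-2 against casein. Contrasts that share the steers of a treatment are not independent of each other, and the interaction uses all 4 treatments.

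Without casein, GLP-2 against control gave an unadjusted p of at most 0.05 for 3 of the 8 genes against 13.9% of all genes. The log2 fold changes were 0.97 for GCG (95% interval 0.16 to 1.78, adjusted p = 0.280 in edgeR), 0.91 for CHGA (0.29 to 1.52, adjusted p = 0.212) and 1.51 for NTS (0.20 to 2.82, adjusted p = 0.293). Log2 fold changes were 0.33 for CCK, 0.49 for GIP and 0.30 for SST, and their intervals included 0. None of these passed the adjusted threshold.

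During casein infusion, casein + GLP-2 against casein gave an unadjusted p of at most 0.05 for 1 of the 8 genes against 24.1% of all genes. That gene was NTS, with a log2 fold change of 1.27 (SE 0.574, adjusted p = 0.186 in edgeR). GCG was at -0.21 (SE 0.355), CCK at 0.15 (SE 0.373), GIP at -0.01 (SE 0.393) and CHGA at -0.30 (SE 0.268).

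In GLP-2 injected steers, casein + GLP-2 against GLP-2 gave an unadjusted p of at most 0.05 for 2 of the 8 genes against 2.64% of all genes, namely GCG (-0.96, 95% interval -1.73 to -0.19) and CHGA (-0.84, 95% interval -1.42 to -0.26), both with an adjusted p of 0.995 in edgeR. In the same contrast 0 of 8 smooth muscle markers were called and all 8 were on the lower side, with a median log2 fold change of -1.68. Their summed level ranged from 55.7 to 277 CPM in casein + GLP-2 and from 120 to 865 CPM in GLP-2 steers. Over the 22 steers r with the smooth muscle score was 0.43 for CHGA and 0.11 for GCG, and the part of smooth muscle in the result was not tested. Casein against control gave 0 of 8 against 5.66% of all genes, with 0.22 for GCG, -0.14 for CCK and 0.15 for GIP.

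The interaction, which is the change with GLP-2 during casein minus the change with GLP-2 during water, had an unadjusted p of at most 0.05 for the same 2 genes against 4.28% of all genes. It was -1.18 on the log2 scale for GCG (SE 0.526, 95% interval -2.27 to -0.09) and -1.20 for CHGA (SE 0.398, 95% interval -2.03 to -0.38), and both had an adjusted p of 0.996 in edgeR. For CCK it was -0.17 (SE 0.552, 95% interval -1.32 to 0.97) and for GIP -0.49 (SE 0.583, 95% interval -1.70 to 0.71). Leaving out 1 steer moved the value for GCG between -1.59 and -0.88 with an unadjusted p of up to 0.109, and that for CHGA between -1.34 and -0.90 with an unadjusted p of up to 0.028. The highest steer for both genes was the GLP-2 steer of block 1, whose smooth muscle score (6.25) was also the highest of the GLP-2 injected steers.

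The 3 genes of lowest count were described steer by steer. PYY (ENSBTAG00000046022, chromosome 19, 43821266 to 43822992, minus strand), the second L cell peptide, had 18, 4, 26, 2 and 8 counts in control steers and 17, 8, 32, 5 and 1 in GLP-2 steers. Casein steers had 0 to 14 counts, with 0 in blocks 1, 2 and 3, and casein + GLP-2 steers had 1 to 21. The groups overlapped, and the difference in mean log2 CPM was 0.48 for GLP-2 minus BSA (permutation p = 0.375, 2-sided) and -0.87 for casein minus water (permutation p = 0.102, 2-sided).

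GHRL (ENSBTAG00000012328, chromosome 22, 54313125 to 54317595, minus strand), mainly a gastric hormone, had 6, 1, 0, 24 and 21 counts in control steers and 9, 4, 10, 18 and 7 in GLP-2 steers. Casein steers had 0 to 8 counts and casein + GLP-2 steers 0 to 6. Counts were present in 9 of 10 water infused steers and 5 of 12 casein infused steers. The difference in mean log2 CPM for casein minus water was -1.41 (permutation p = 0.01, 2-sided, 1 of 6 such tests on the 3 genes), and in an edgeR fit of all 21855 genes with a count the adjusted p was 0.580, so the difference did not pass the threshold over all genes. The casein steers without GHRL counts, blocks 1 to 3, were the same steers as those without PYY counts.

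CHGB (ENSBTAG00000011782, chromosome 13, 48069187 to 48084157, plus strand), the second granin, had 43 counts over all 22 libraries, 21 of them in the casein steer of block 5. No difference was detectable at this depth (2-sided permutation p = 0.794 between the injections and 0.782 between the infusions).

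**Figure D5:**
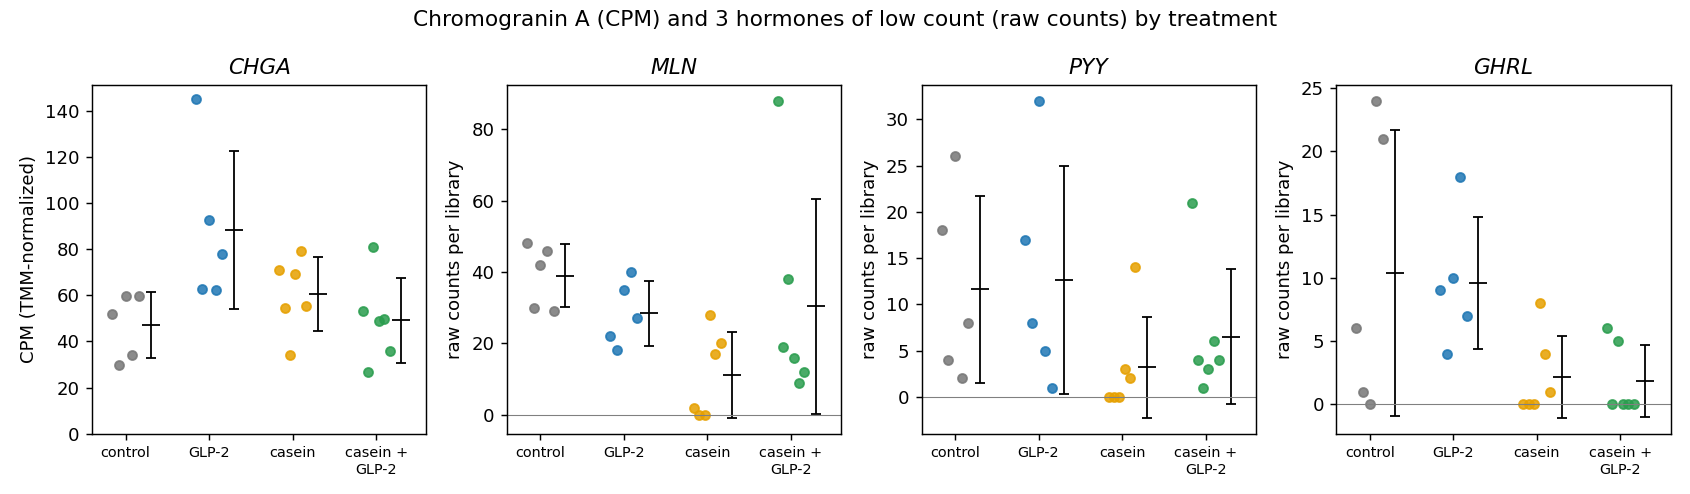
CPM of CHGA and raw counts of MLN, PYY and GHRL in each steer by treatment, with 1 point per steer and bars for the mean and SD. CHGA ranged from 62.3 to 145 CPM in GLP-2 steers and from 29.9 to 59.9 CPM in control steers (adjusted p = 0.212 in edgeR). Casein steers included libraries at 0 counts for MLN, PYY and GHRL.

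Among 9 pairs of genes correlated over the 22 steers in log2 CPM, CHGA was related to GCG (Pearson r = 0.61, permutation p = 0.00307, adjusted p = 0.0166; Spearman rho = 0.52, permutation p = 0.0148, adjusted p = 0.0664) and to GIP (r = 0.59, permutation p = 0.0037, adjusted p = 0.0166; rho = 0.64, permutation p = 0.00163, adjusted p = 0.0147). Without the 2 steers farthest from the median of CHGA, r was 0.47 with GCG and 0.63 with GIP. Within GLP-2 injected steers r was 0.85 with GCG and 0.45 with GIP, and within BSA injected steers it was 0.37 and 0.78. Each injection group held both infusions, and the permutations ran over all 22 steers without regard to treatment. GCG and CHGA both averaged lower in casein + GLP-2 than in GLP-2 steers, so these r values include differences between treatments. CHGA with CCK gave r = 0.21 (permutation p = 0.342, adjusted p = 0.437). GCG was not related past the threshold to CCK (r = 0.25, permutation p = 0.252), GIP (r = 0.19, permutation p = 0.382), NTS (r = 0.19, permutation p = 0.388) or PYY (r = 0.13, permutation p = 0.559), nor CCK to GIP (r = 0.38, permutation p = 0.0857) or CHGA to CHGB (r = 0.23, permutation p = 0.292). Spearman rho of GCG with CCK was 0.45 (permutation p = 0.0361, adjusted p = 0.108). For CCK with GIP, r was 0.70 within GLP-2 injected and 0.03 within BSA injected steers.

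The genes whose log2 CPM was most like a member over the 22 steers, of 13130 ranked, were given by Pearson r as a description. Among those most like GCG were ADH6 (0.81), AGR3 (0.80), C6 (0.79) and ATOH1 (0.76), the last of which is the transcription factor required for the secretory lineages of the gut. Most like CCK were ABHD17B (0.78), WBP1 (0.75), VRK3 (0.73), CHMP3 (0.69) and APOC2 (0.69). Most like GIP were CHST6 (0.81), RNF112 (0.80), FGFRL1 (0.77), F10 (0.77) and HSPB1 (0.75). Most like CHGA were LMNB2 (0.79), LZTS3 (0.76), MLEC (0.75), FAM155B (0.74) and UAP1L1 (0.73).

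NEUROD1, a transcription factor required for several enteroendocrine subtypes, averaged 2.05 ± 0.815 CPM in GLP-2 injected and 1.45 ± 0.815 CPM in BSA injected steers (log2 fold change 0.51, adjusted p = 0.265 in edgeR).

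Of 11 granule and prohormone processing genes, 7 were tested and 1 was called, a share near the 13.5% of all genes. PTPRN2, a transmembrane protein of dense-core granules, averaged 6.33 ± 2.06 CPM in GLP-2 injected and 2.49 ± 1.92 CPM in BSA injected steers (log2 fold change 1.35, adjusted p = 0.0404 in edgeR), and its adjusted p was 0.0512 with the replicate block. Its close relative PTPRN was at 0.791 ± 0.350 and 1.55 ± 0.955 CPM (-0.94, adjusted p = 0.10). The median of the 7 was -0.54, so the called gene lay opposite to the list's median. PCSK1, the convertase that cuts proglucagon into GLP-1 and GLP-2, fell below the filter and was not tested. It averaged 0.769 ± 0.618 CPM in GLP-2 injected and 0.238 ± 0.278 CPM in BSA injected steers and is named after its values were seen. The other genes of this list below the filter averaged lower with GLP-2. These were SCG2 (0.528 ± 0.251 against 1.77 ± 2.27 CPM), VGF (0.176 ± 0.183 against 0.344 ± 0.470 CPM) and PCSK2 (0 against 0.264 CPM, with counts in 1 steer).

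Of 10 further genes for gut hormones and serotonin synthesis, 9 were matched, 3 tested and 0 called, with 0.31 for TAC1 (substance P) and 0.34 for DDC. The other tested gene, TPH1, lay on the lower side at -0.46 (adjusted p = 0.578 in edgeR). Of 15 nutrient sensors, 14 were matched, 7 tested and 0 called, with 0.37 for LPAR5 and -0.70 for CASR, the calcium-sensing receptor that also responds to amino acids. Of 20 hormone receptors and peptidases, 18 were matched, 3 tested and 0 called. DPP4, the peptidase that inactivates GLP-1, GLP-2 and GIP, averaged 549 ± 251 CPM in GLP-2 injected and 243 ± 201 CPM in BSA injected steers (log2 fold change 1.20, adjusted p = 0.0504 in edgeR), and MME, which encodes neprilysin, at 341 ± 209 and 179 ± 102 CPM (0.94, adjusted p = 0.0553). Both lay between 0.05 and 0.1, and both are brush border enzymes of villus enterocytes, whose markers were on the higher side in the same steers; their part in the result was not tested. GLP2R, the receptor of the injected peptide, was at 8.71 ± 7.90 and 10.5 ± 10.9 CPM (-0.28, adjusted p = 0.700). In casein against water, 0 genes of any of these lists were called.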

How the data were processed

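Raw counts per gene were deposited by the authors, who aligned strand-specific poly-A libraries to ARS-UCD1.2 and counted reads per gene (the submitters' processing notes list HISAT2 2.0.5, StringTie 1.3.3b, featureCounts 1.5.0-p3 and DESeq2 1.20). FPKM values were also deposited by the authors, computed from those counts, gene length and a factor per library. That factor was 0.798 to 1.37 times the one the total count gives. FPKM served for levels between genes and as an alternative.

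R 4.3.3 with edgeR 4.0.16 (TMM, filterByExpr with a minimum count of 10, quasi-likelihood test, Benjamini-Hochberg over all tested genes, threshold 0.05, tendency 0.1) gave all tests across genes. GLP-2 injected (n = 11) were compared with BSA injected steers (n = 11) and casein infused (n = 12) with water infused steers (n = 10), pooled over the other factor. The 4 treatments were fitted in 1 further model. CPM was TMM-normalized, and log2 CPM had a prior count of 2. Permutation tests drew 100000 resamples. Intervals are 95% intervals, and floors are 3 counts per library and cover counting error only. Alternatives used DESeq2 1.42.0 and limma 3.58.1. The procedure was tested on simulated data.

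Members and gene lists were chosen with earlier results of these data known. All 10 members were named, with called genes and the 2 of smallest p of each list of enteroendocrine genes. The results of 2 genes that these rules name, and a list count that includes one of them, are not reported here. Of the lists of other cell types, those that bear on NTS are given in the report; 0 of 4 goblet, 0 of 8 smooth muscle and 0 of 1 enteric glia markers tested were called between GLP-2 and BSA. Replicate numbers are the blocks by body weight given in the labels. After removal of treatment means, steers sharing a block correlated at 0.0331 on average (30 pairs) and steers of different blocks at -0.00641 (151 pairs). The block was taken as a pairing given by the design and fitted as an alternative.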

Additional observations from a re-analysis of the deposited data

Results flagged for a closer look

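Among 33 sets of a gene in a treatment, 3 had a steer that lay far from the others by Dixon's test, which flags about 1 set in 20 by chance. CCK in the GLP-2 steer of block 3 was at 4.36 log2 CPM, with the next GLP-2 steer at 3.89. GIP in the casein steer of block 3 was at 1.95 log2 CPM, the lowest of its treatment, with the next at 3.91. SST in the control steer of block 5 was at 5.32 log2 CPM, with the next control steer at 4.16.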

How the results depend on the processing

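Of 907 values under an alternative, 868 kept their direction and their side of the threshold, or for counts of members called, their number. Most of these values belong to results that were not called, for which a change of side was unlikely. For NTS with GLP-2, 6 of 11 alternatives kept the call, and 7 of 22 fits without 1 steer lost it. Between GLP-2 and BSA, the number of genes called among these members was 1, and 0 with the replicate block, with the B cell follicle, pan-epithelial or villus enterocyte score as a covariate, and with limma on log2(FPKM + 1) over all genes above 0, where NTS was at 1.22 (adjusted p = 0.0566); it was 0 to 1 when 1 steer was left out. NTS stayed called with DESeq2 (adjusted p = 0.00812), DESeq2 size factors, no filter, the other factor as a covariate, and limma on the filtered FPKM with a pseudocount of 1 or 0.1. The replicate block also ended the calls of PTPRN2 and EPCAM and changed the call of no other member. Over all genes, 689 were called with the block, 699 with limma on all genes above 0, 2999 with DESeq2 and 0 with each score, against 1881. The log2 fold change of CCK with GLP-2 was -0.03 with the follicle score, -0.07 with the pan-epithelial score and -0.12 with the villus enterocyte score, and that of GIP was -0.01 with the pan-epithelial score. NTS with casein was 0.03 with the villus enterocyte score, and the interaction of CCK was 0.07 with the follicle score. The cause was not tested. Leaving out 1 steer gave, with GLP-2, 0.18 to 0.53 for GCG, 0.14 to 0.33 for CCK 0.07 to 0.33 for GIP, 0.04 to 0.24 for SST, 0.09 to 0.37 for CHGA and 0.01 to 0.50 for MLN, and, with casein, -0.56 to -0.22 for GCG, -0.36 to -0.13 for CCK, -0.29 to 0.05 for GIP and -0.41 to 0.15 for NTS. It gave -0.37 to 0.09 for the interaction of CCK. The count of members called was 0 in every other comparison under all alternatives run. Between 5 and 6 steers per treatment, and counts under 100 per library for MLN, PYY, GHRL and CHGB, limit what these data can show.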

Other observations

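The genes most like NTS over the 22 steers, looked up after its values were seen, were KLC4 (r = 0.88), PRKCA (0.88), CRYBG1 (0.86), DSP (0.85) and ACO1 (0.85), of 13130 genes ranked. DSP encodes desmoplakin, a junction protein of epithelia. PAX4, a transcription factor of the enteroendocrine lineage that fell below the filter and was not tested, averaged 0.792 ± 0.387 CPM in GLP-2 injected and 0.254 ± 0.309 CPM in BSA injected steers (SD, n = 11 per group), and is also named after its values were seen. Factors of that lineage did not all lie on the same side. MNX1 (1.76 ± 1.32 against 2.69 ± 2.80 CPM), PAX6 (0.257 ± 0.223 against 0.353 ± 0.383 CPM) and NKX2-2 (0.203 ± 0.238 against 0.232 ± 0.518 CPM) averaged lower with GLP-2, and others averaged higher.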
